A study of Macaca mulatta with 20 samples.

Results

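Heat shock proteins and their DNAJ partners are the cell's folding machinery, and their messenger RNA was followed here in the corpus luteum of rhesus macaques (Macaca mulatta) during simulated early pregnancy. The set holds every gene whose single symbol in the array's annotation begins with DNAJA, DNAJB or DNAJC and a number, with HSP90, or with HSPA, HSPB, HSPD, HSPE or HSPH and a number, 48 genes of the 14132 that were measured under 1 symbol. These 48 genes had 106 probe sets, 16 of them a single probe set and 32 several, and each gene is represented by its probe set with the highest mean log2 value over the 20 arrays. The choice used names and brightness only, although DNAJA4 and DNAJB1 were named in the rule with earlier results of these data known.

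The 5 groups held 4 Affymetrix rhesus arrays each, 1 array per corpus luteum. The first group was untreated and collected on luteal day 10. The other 4 groups came from females given human chorionic gonadotropin (hCG), the hormone by which an early embryo keeps the corpus luteum alive, in rising doses from luteal day 9, with 2 injections per day into muscle. Their corpora lutea were collected on luteal day 10, 12, 15 or 18, after 1, 3, 6 or 9 days of hCG, and are called hCG day 10, 12, 15 and 18 below. Only hCG day 10 matches the untreated group in luteal day, so on days 12, 15 and 18 the length of treatment and the age of the corpus luteum cannot be told apart. No genotype or age of the animals is given in the labels. Nothing in the labels states that a group's 4 corpora lutea are from 4 animals, and the p-values therefore describe the spread between these arrays, which may in part be technical.

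Chaperones of the HSP70 family bind unfolded stretches of protein and release them in cycles driven by ATP. The DNAJ proteins, also called J-domain or HSP40 proteins, bring clients to HSP70 and switch on its ATPase through the J domain. Relatives of HSP70 such as HSPH1 make it let go of ADP and so reset the cycle. HSP90 takes over partly folded clients such as steroid receptors, small heat shock proteins hold unfolding proteins until HSP70 can act on them, and heat shock factor HSF1 turns many of these genes on under stress. The corpus luteum is a gland that makes progesterone from cholesterol at a high rate, and steroid hormone receptors are among the textbook clients of the HSP70 and HSP90 machinery.

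Signals were broad and bright for most of the set. The mean log2 value lay in the upper 50% of all tested probe sets for 41 of the 48 genes. DNAJB7 and DNAJB8 had a signal under 16 units in all 20 arrays and HSPB9 in 12 of them, so these 3 lay near the lower end of the signal scale. HSPA8, the constitutive cytosolic HSP70, had the brightest probe set of the set, with signals of 6213 to 9195 over all arrays, and DNAJB8, a J protein known from testis, the dimmest, with 0.81 to 8.23. Levels of different probe sets are not comparable with each other, so each gene is compared only with itself.

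Array medians lay between 31.6 and 46.4 signal units, and 3 arrays stood apart from the others on the third principal component (replicate 2 of the untreated group, replicate 1 of hCG day 12 and replicate 2 of hCG day 15). Leaving these 3 out ended 1 of the calls on the 48 genes given below, which is named there. It also ended calls on BAG2, HSF4, PFDN6 and cholesterol synthesis genes, which are given with those genes. Luteal steroidogenic markers were present in every group: 4 of 6 listed genes were measured (STAR, HSD3B2, FDX1 and INHA), and their summed signal was 32900 to 53860 per array. Of these 4, HSD3B2, an enzyme of progesterone synthesis, was lower than untreated on hCG day 15 (-0.97, adjusted p = 0.024 in limma) and day 18 (-1.83, adjusted p = 4.4e-05). Lymphocyte markers were dim, with 3 of 6 measured and summed signals of 63.7 to 219. These are pieces of whole tissue, in which fewer cells of a type and less RNA per cell cannot be told apart.

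The first question was which chaperone genes differed among the 5 groups at all. Such differences were found in 4 genes, all J proteins: DNAJA4, DNAJB1, DNAJB5 and DNAJC1. They are the 4 of 48 members past the moderated F test of limma over the 4 contrasts against untreated day 10 (Benjamini-Hochberg adjusted p under 0.05 over 52707 probe sets), beside 4.52% of all probe sets tested. Counting the 10 pairwise comparisons as well brought in HSPB6 and HSPH1, which made 6 genes past a test, beside 7.92% of all probe sets past the F test or any of the 10, and left 42 past none. The groups accounted for 93.8% of the variance of DNAJA4, 73.9% for DNAJB1, 70.7% for DNAJC1 and 68.8% for DNAJB5. The median was 36.8% over the 48 members and 24.6% over all probe sets. These medians are not matched for brightness, as 41 of the 48 members lay in the upper 50% by mean log2 value.

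**Figure D1:**
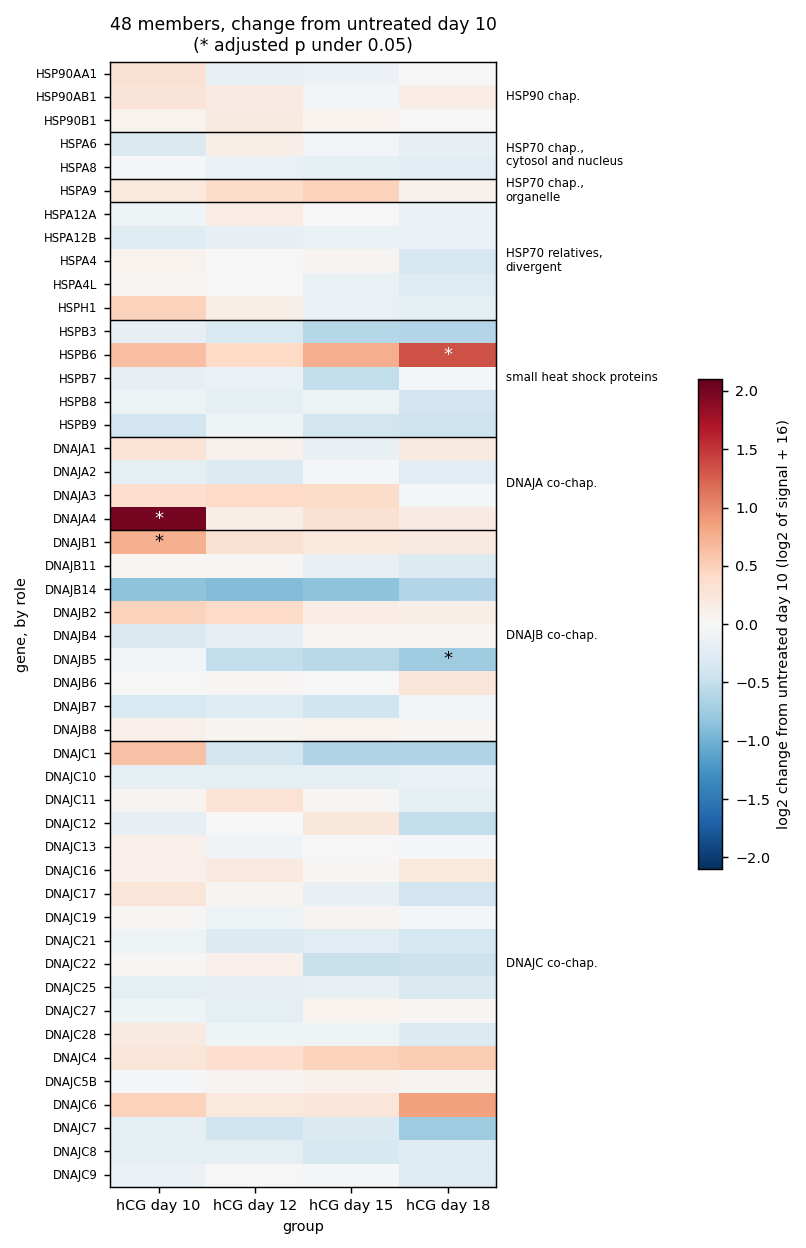
Change in each of the 48 genes from untreated luteal day 10 (colour, log2 of signal + 16, red higher and blue lower), with genes in rows ordered by role and the 4 hCG groups in columns. Stars mark an adjusted p under 0.05 in limma: DNAJA4 and DNAJB1 on hCG day 10, and HSPB6 and DNAJB5 on hCG day 18.

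On the first day of hCG, DNAJA4 and DNAJB1 rose and no member was called lower. That is 2 of 48 members past limma's test on hCG day 10 against untreated day 10, beside 0.954% of all probe sets (0.651% higher), and both were already singled out when the set was chosen. The median change of the 48 genes was 0.02 on the log2 scale and that of all probe sets -0.05, with 26 members above 0 and 22 below. Median-centring of the arrays took out a difference of -0.12 in the log2 array medians of this comparison. It moved the members to 33 above and 15 below 0. With it the share of higher calls among all called probe sets went from 68.2% to 86.1%. Quantile normalisation gave 25 members above and 23 below 0 and a share of 71.45%, so the split depends on which scaling is used. An unadjusted p under 0.05 was reached by 5 members. The share of all probe sets at that level was not counted, so the number is not read as a result about the members.

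DNAJA4 is a cytosolic J protein that is known as a target of SREBP, the transcription factor that also drives the cholesterol synthesis genes. Its signals in the 4 untreated corpora lutea were 283, 372, 246 and 295. After 1 day of hCG they were 1006, 1494, 1461 and 1072, so that every treated array was above every untreated one, and the lowest treated array exceeded the highest untreated one by a wide margin. The mean went from 299 ± 53.1 (SD, n = 4) to 1258 ± 255 (SD, n = 4). On the log2 scale this was a rise of 2.01 ± 0.16 (SE), or 4.03-fold, with an adjusted p of 8.1e-06 in limma.

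The rise of DNAJA4 was gone by luteal day 12. The signals of hCG day 12 were 325, 328, 351 and 301, and those of hCG day 15 were 414, 363, 447 and 285. On hCG day 18 they were 305, 357, 306 and 379. All 3 later groups overlapped the untreated group and lay entirely below hCG day 10. The log2 change from untreated was 0.13 on day 12 (adjusted p = 0.80 in limma), 0.32 on day 15 (0.45) and 0.17 on day 18 (0.70), and the 95% interval on day 18 ran from -0.16 to 0.51. Against hCG day 10 the gene fell by 1.88, 1.69 and 1.84 on days 12, 15 and 18, with adjusted p-values of 1.3e-05, 1.2e-05 and 2.3e-06 in limma. These comparisons share the hCG day 10 arrays, as those above share the untreated ones.

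All 3 probe sets of DNAJA4 showed the rise on hCG day 10. The other probe sets changed by 1.40 (adjusted p = 0.0044 in limma) and by 2.03 (0.00053). Their changes on day 12 and day 15 lay on the other side of 0 from those of the brightest probe set, all of them small.

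DNAJB1, the heat-inducible HSP40 that partners HSP70 in the cytosol, rose less. Untreated corpora lutea had signals of 989, 1108, 859 and 912, and those of hCG day 10 had 1486, 1594, 1846 and 1570. The groups did not overlap, with means of 967 ± 108 and 1624 ± 155 (SD, n = 4 each). The log2 change was 0.74 ± 0.13 (SE), or 1.67-fold, with an adjusted p of 0.0081 in limma. Fitting the 8 arrays of these groups alone took the adjusted p to 0.059. The gene's other probe set rose by 0.71 (adjusted p = 0.034).

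Later values of DNAJB1 lay between. The signals were 1189, 1070, 1386 and 1206 on hCG day 12, with 1117, 1067, 1158 and 1150 on hCG day 15. On hCG day 18 they spread more widely, at 1408, 1169, 978 and 919. All of these arrays were below the lowest array of hCG day 10, and the means of 1213, 1123 and 1119 were above the untreated mean without passing the test (log2 changes 0.32, 0.22 and 0.19, adjusted p = 0.40, 0.56 and 0.55 in limma).

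Measured against hCG day 10, DNAJB1 fell by 0.52 on day 15 (adjusted p = 0.048 in limma) and by 0.55 on day 18 (adjusted p = 0.019). The day 15 call is fragile: it was lost in 22 of 31 alternative analyses, among them the fit without the 3 arrays that stood apart (adjusted p = 0.15), and when any 1 of 16 arrays was left out. The 4 arrays whose removal kept it were replicates 1 and 4 of hCG day 18, replicate 3 of hCG day 12 and replicate 2 of the untreated group, and the log2 change without 1 array ranged from -0.56 to -0.46. The day 18 call was lost without hCG day 10 replicate 3 (adjusted p = 0.071), hCG day 18 replicate 3 (0.066) or hCG day 18 replicate 4 (0.072).

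**Figure D2:**
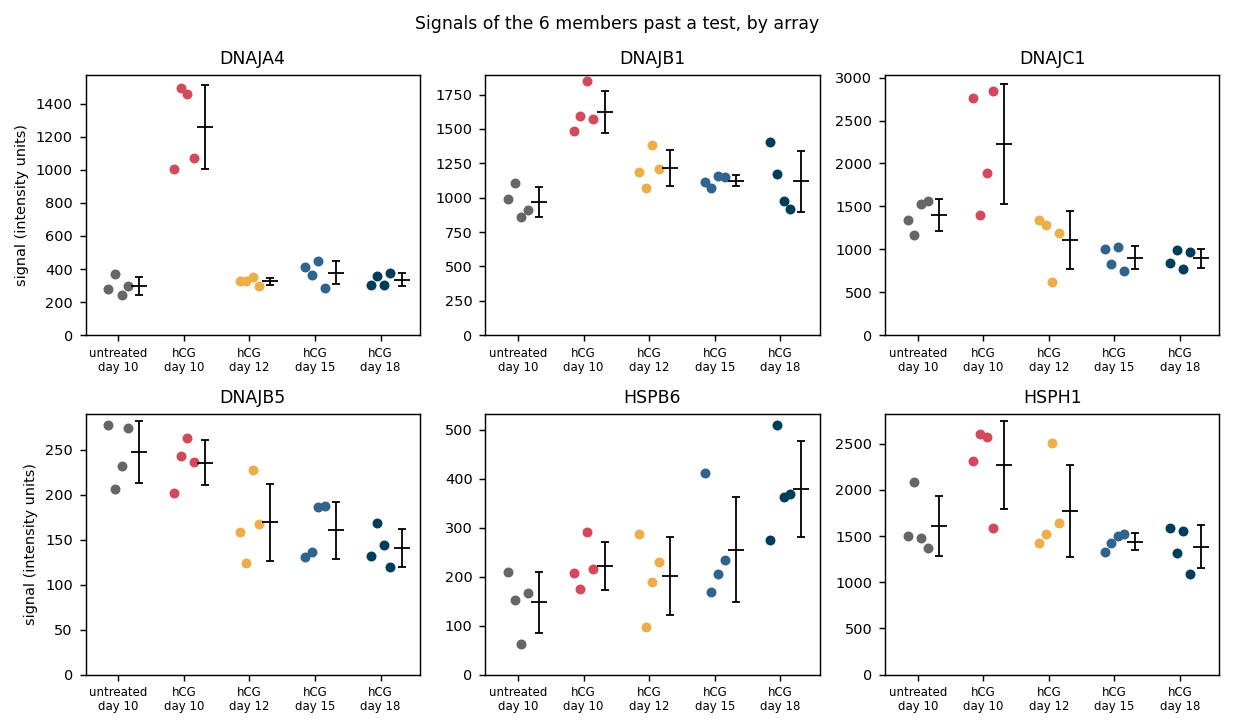
Signal in each of the 20 arrays (points, linear intensity units, axis from 0) for the 6 genes past a test, by group, with the mean and SD of the 4 arrays beside each group. DNAJA4 and DNAJB1 stand above the other groups only on hCG day 10, the means of DNAJC1 and DNAJB5 are lowest on hCG day 18 (895 and 141) and the mean of HSPB6 is highest there (379).

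DNAJC1 is a J protein of the endoplasmic reticulum membrane, where it works with the lumenal HSP70. Its signals were 1339, 1172, 1526 and 1564 in the untreated group. They were 2762, 1404, 1894 and 2840 on hCG day 10, which overlapped the untreated group and had the widest spread of the 5 groups (mean 2225 ± 695, SD, n = 4). Signals of 1347, 1286, 616 and 1193 followed on hCG day 12. On hCG day 15 they were 1001, 830, 1031 and 752, and on hCG day 18 they were 836, 995, 775 and 974. These last 8 arrays were all below the lowest untreated one.

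Between hCG days, DNAJC1 fell by 1.24 ± 0.23 (SE) from day 10 to day 15 (adjusted p = 0.0066 in limma) and by 1.25 from day 10 to day 18 (adjusted p = 0.0032). Against the untreated group it passed no pairwise test: the log2 changes were 0.61 on day 10 (adjusted p = 0.27), -0.38 on day 12 (0.58), -0.63 on day 15 (0.27) and -0.63 on day 18 (0.16). The change from day 10 to day 12 was -0.997 (adjusted p = 0.066). In the gene's other probe set the rise on hCG day 10 was 1.13 (adjusted p = 0.023) and the fall from hCG day 10 to day 18 was 1.63 (adjusted p = 0.00028), so the probe sets differ on whether the first day passed the test. Fitted on 8 arrays alone, the step from day 10 to day 15 had an adjusted p of 0.055.

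Moving from the first day of hCG to the ninth, 5 of 48 members were called lower on hCG day 18 and none higher. This stood beside 5.21% of all probe sets called in that comparison (2.25% higher and 2.95% lower). The 5 were DNAJA4, DNAJB1, DNAJC1, DNAJB5 and HSPH1. Of all members 34 lay below 0 and 14 above, with a median of -0.12 where all probe sets had 0.03. Steps from hCG day 10 to day 15 gave 3 lower (DNAJA4, DNAJB1 and DNAJC1) beside 1.9% called and 1.27% lower among all probe sets. The step to day 12 gave 1 lower (DNAJA4) beside 0.518% called and 0.416% lower. From day 12 to day 15, day 12 to day 18 and day 15 to day 18, limma called 0 members, beside 0%, 1.43% and 0% of all probe sets. In these steps 1, 8 and 5 members had an unadjusted p under 0.05, a level at which all probe sets were not counted.

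HSPH1, the HSP110 exchange factor that resets HSP70, had untreated signals of 1498, 2088, 1474 and 1369. On hCG day 10 they were 2314, 2603, 2570 and 1585, and on hCG day 18 they were 1584, 1317, 1555 and 1087. Day 18 lay below day 10 without overlap, but the nearest arrays of the groups read 1584 and 1585. The log2 change between these groups was -0.69 ± 0.19 (SE, adjusted p = 0.042 in limma), and that from untreated to hCG day 10 was 0.49 (adjusted p = 0.30). Signals of hCG day 12 were 1425, 1524, 2508 and 1638, and those of day 15 ran from 1323 to 1523.

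The HSPH1 call was lost in 14 of 31 alternatives. In 10 of these, 1 array was left out: untreated replicate 1 or 3, hCG day 10 replicate 1, 2 or 3, hCG day 12 replicate 4, or any of the 4 arrays of hCG day 18, with log2 changes between -0.86 and -0.58. Of the 5 other probe sets, 3 had changes of -0.68 (adjusted p = 0.037), -0.72 (0.099) and -0.71 (0.11), and 2 lay near 0, at 0.15 and 0.05.

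On luteal day 18, after 9 days of hCG, HSPB6 was higher than in untreated tissue and DNAJB5 lower. These are 2 of 48 members, beside 3.9% of all probe sets (1.87% higher and 2.02% lower), so the share of members called was close to that of all probe sets. The median change of the members was -0.14 and that of all probe sets -0.03, with 32 members below 0 and 16 above. Median-centring took out a difference of -0.05 in the log2 array medians and left 27 below and 21 above. Quantile normalisation gave 31 below and 17 above. An unadjusted p under 0.05 was reached by 12 members. The share of all probe sets at that level was not counted here either, so the number is not read as a result about the members.

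HSPB6, or HSP20, is a small heat shock protein best known from muscle, where cyclic AMP signalling phosphorylates it. Signals in the untreated group were 209, 153, 62.1 and 166. On hCG day 18 they were 274, 510, 363 and 370, all above the highest untreated array. The mean rose from 148 ± 61.7 to 379 ± 97.6 (SD, n = 4 each), a log2 change of 1.34 ± 0.33 (SE) or 2.54-fold, with an adjusted p of 0.026 in limma. The groups between had signals of 176 to 292 on hCG day 10, 97.5 to 286 on day 12 and 170 to 412 on day 15, and overlapped the untreated group, with log2 changes of 0.62, 0.42 and 0.76 that did not pass.

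The call on HSPB6 needed most of its arrays. Without hCG day 18 replicate 2, 3 or 4 the adjusted p was 0.089, 0.058 or 0.061. Leaving out untreated replicate 3, the lowest array, gave a log2 change of 1.02 and an adjusted p of 0.096, and a fit of the 8 arrays alone gave 0.056. A second probe set of HSPB6 rose by 1.24 on hCG day 18 (adjusted p = 0.0096).

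Other cell types were read beside this change. Of 6 smooth muscle and pericyte markers 2 were measured (MYH11 and TAGLN), and their summed signal was 2136 to 3013 per array in the untreated group and 2201 to 3072 on hCG day 18, so it overlapped almost completely. Of 6 macrophage markers 5 were measured, and their sum was 1176 to 2696 in the untreated group and 2351 to 4362 on hCG day 18. All 5 lay above 0 with a median change of 0.69, and CSF1R, the receptor that macrophages need for survival, passed the test (1.06, adjusted p = 0.012). Fibroblast markers, 5 of 6 measured, had a sum of 11710 to 16580 untreated and 8702 to 15970 on hCG day 18, with 1 of 5 above 0, a median of -0.51 and none called. All 6 endothelial markers were measured, with sums of 6388 to 8285 and 6635 to 8287, a median of -0.05 and none called. The part of these cell types in the changes of HSPB6 and DNAJB5 on day 18 was not tested.

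DNAJB5, a cytosolic J protein closely related to DNAJB1, went the other way. Its untreated signals were 278, 207, 231 and 274, and those of hCG day 10 were 201, 242, 263 and 236, which overlapped them. They were 159, 124, 227 and 167 on hCG day 12, and 130, 136, 186 and 188 on hCG day 15. On hCG day 18 they were 132, 168, 144 and 119. Arrays of days 15 and 18 were all below the lowest untreated array.

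For DNAJB5 the mean fell from 247 ± 34.4 to 141 ± 21.0 (SD, n = 4 each) by hCG day 18, a log2 change of -0.75 ± 0.17 (SE) with an adjusted p of 0.014 in limma. The values on day 12 and day 15 were -0.52 (adjusted p = 0.25) and -0.59 (0.10). From hCG day 10 to day 18 the change was -0.68 (adjusted p = 0.019). The call against untreated was lost under median-centring (adjusted p = 0.062) and without hCG day 18 replicate 4 (0.051), and the call against hCG day 10 without hCG day 10 replicate 3 (0.065) or hCG day 18 replicate 1 (0.058) or 4 (0.067). Its second probe set fell by 1.02 on day 15 (adjusted p = 0.020) and by 0.99 on day 18 (0.011).

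**Figure D3:**
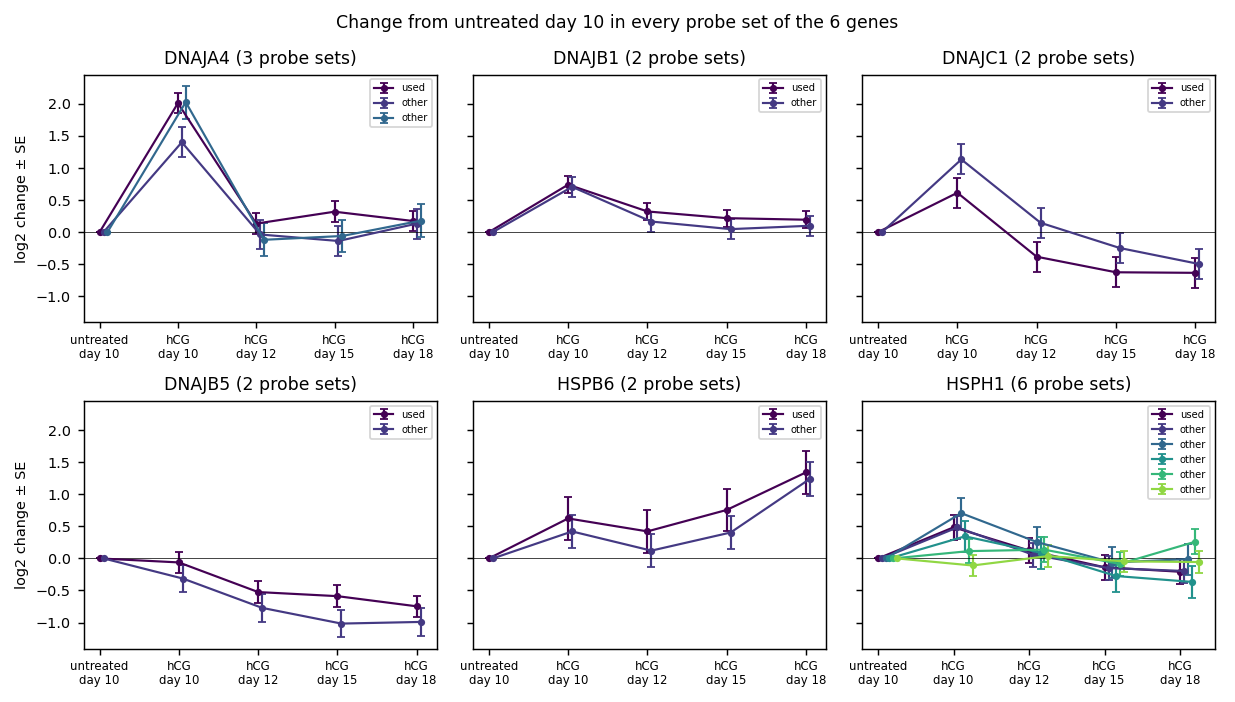
Log2 change from untreated day 10 (± SE, log2 of signal + 16) in every probe set of the 6 genes past a test, for the 4 hCG groups. On hCG day 10 the 3 probe sets of DNAJA4 rise by 1.40 to 2.03 and those of DNAJB1 by 0.71 and 0.74, while 2 of the 6 probe sets of HSPH1 stay near 0 throughout.

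On hCG days 12 and 15, no member passed against the untreated group (0 of 48 in limma each), beside 0.288% and 1.29% of all probe sets. Members with an unadjusted p under 0.05 numbered 5 and 8, and the share of all probe sets at that level was not counted. The members' medians were 0.00 on day 12 and -0.06 on day 15, and those of all probe sets -0.06 and -0.05. Median-centring takes out differences of -0.14 and -0.11 in the log2 array medians. With it, members above 0 went from 24 to 32 on day 12 and from 20 to 27 on day 15. Quantile normalisation gave 23 above 0 on day 12 and 21 on day 15. Averaging the probe sets of each gene gave 1 call on day 15, DNAJB5.

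**Figure D4:**
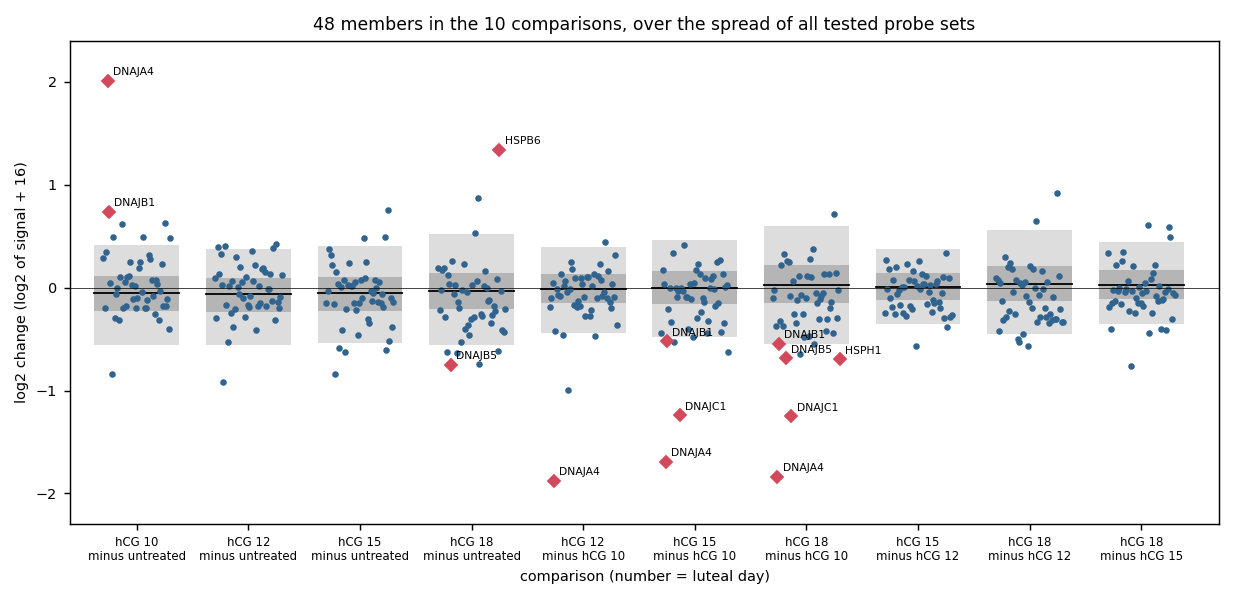
Log2 change of the 48 genes (points) in the 10 pairwise comparisons of the 5 groups, over all tested probe sets (black line, median; dark band, middle 50%; light band, middle 90%). Red diamonds with names mark an adjusted p under 0.05: DNAJA4 and DNAJB1 lie above 0 on hCG day 10 against untreated, and the called members of days 12, 15 and 18 against hCG day 10 all lie below 0.

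None of the 3 HSP90 genes and none of the 3 HSP70 genes among the members passed a test. These are 2 of 7 listed cytosolic HSP70 genes (HSPA6 and HSPA8) and 1 of 3 listed organelle ones (HSPA9), and the others were not analysed here. Of the HSP90 genes, HSP90AB1, the constitutive cytosolic form, had untreated signals of 4116, 4037, 3183 and 3546 and hCG day 10 signals of 4513, 4226, 5115 and 4122. These groups did not overlap, though their nearest arrays read 4116 and 4122, and the log2 change was 0.27 (adjusted p = 0.41 in limma). HSP90AA1, the inducible form, had 0.32 on that day (adjusted p = 0.46), and HSP90B1, the form of the endoplasmic reticulum, 0.08 (0.87). On hCG day 18 the changes of the 3 genes were 0.16, 0.01 and -0.01.

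Turning to HSP70, HSPA8 had signals of 7378, 7474, 7963 and 9195 in the untreated group and 6801, 6373, 7180 and 6933 on hCG day 18. Day 18 lay fully below, yet by only -0.23 ± 0.11 (SE) on the log2 scale (adjusted p = 0.33 in limma). Of the 2 other probe sets of HSPA8, 1 changed in the same direction on that day. HSPA6, which is made under strong stress only, was dim throughout, with signals of 10.8 to 68.5 and no order among the groups. HSPA9, the mitochondrial HSP70, had means of 1989, 2300, 2565, 2796 and 2085 from untreated through hCG days 10, 12, 15 and 18, and its log2 change of 0.49 on day 15 did not pass (adjusted p = 0.22). Among the divergent relatives, HSPA4 had changes within 0.08 of 0 up to day 15 and -0.35 on day 18 (adjusted p = 0.25).

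Of 8 listed small heat shock proteins 5 were members, and the rest were not analysed here. The members other than HSPB6 passed no test. HSPB8, which works with BAG3 in removing damaged proteins, had signals of 1263 to 1809 untreated and 1028 to 1338 on hCG day 18. Its log2 change on day 18 was -0.41 (adjusted p = 0.22 in limma). The gene's other probe set changed in the opposite direction in every hCG group against untreated. HSPB3 was dim, with a mean of 22.5 units untreated and 9.59 on hCG day 18, and its change of -0.62 had an adjusted p of 0.16. HSPB7 and HSPB9 were as dim, with means under 20 units in every group.

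Among J proteins, DNAJA1, DNAJA2 and DNAJA3 gave no call. DNAJA1, a general cytosolic partner of HSP70, varied more within groups than between them, from 777 to 1538 in the untreated group and from 995 to 1927 on hCG day 10 (log2 change 0.28, adjusted p = 0.69 in limma). DNAJA3, the mitochondrial J protein, had changes of 0.35, 0.39 and 0.38 on days 10, 12 and 15 and -0.03 on day 18.

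Some of the remaining DNAJB and DNAJC genes had groups that did not overlap without passing the test. DNAJB14, a J protein of the endoplasmic reticulum membrane, had even untreated signals of 533, 519, 529 and 458. Its hCG arrays ranged from 111 to 570, and the log2 changes were -0.84, -0.92, -0.84 and -0.62 with an SE of 0.43, the largest SE among the 48 genes. None of the 4 changes passed (adjusted p = 0.43, 0.46, 0.46 and 0.55 in limma). DNAJC7, which links HSP70 and HSP90, had untreated signals of 777 to 841 and hCG day 18 signals of 329 to 604, all lower (-0.75, adjusted p = 0.091 in limma). DNAJB2 was 380 to 419 untreated and 511 to 727 on hCG day 10, all higher (0.49, adjusted p = 0.27).

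Against untreated tissue, hCG day 10 did not overlap in 4 members that were higher and 1 that was lower, beside 3.42% and 4.54% of all probe sets. Day 12 gave 2 higher and 1 lower (beside 2.14% and 3.56%), day 15 gave 4 lower (beside 4.56%), and day 18 gave 2 higher and 5 lower (beside 4.79% and 6.37%). Among these were dim genes: DNAJB7, lower on day 15, had signals under 16 units in all 20 arrays, and HSPB3, lower on day 18, in 9 arrays. DNAJC10, the reductase of the endoplasmic reticulum, had the brightest of the 19 DNAJC probe sets. Its mean signals lay between 4645 and 5339 in all 5 groups, with changes of -0.21 to -0.14. The gene's other probe set changed in the opposite direction on days 12, 15 and 18. DNAJC6, the auxilin that uncoats clathrin vesicles, had 44.1 to 44.5 units in the 3 arrays that stood apart and 102 to 246 in the other 17.

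The partners of these chaperones were read from lists chosen with earlier results known. On the list of heat shock factors, which also holds the factor-binding protein HSBP1, 4 of 5 genes were measured. HSF1, the main stress factor, had changes of 0.27, -0.02, -0.09 and -0.08 on hCG days 10, 12, 15 and 18, none of which passed in limma. HSF4, the factor known from the lens, was called lower on day 15 (-0.90, adjusted p = 0.0058) and day 18 (-1.28, adjusted p = 7.4e-05), from 86.8 to 97.6 units untreated to 19.6 to 36.8 on day 18. Its second, dimmer probe set had 0.32 and 0.58 on these days (adjusted p = 0.64 and 0.19 in limma), so the direction of HSF4 depends on the probe set, and the mean of both passed no test. Without the 3 arrays apart, the day 15 value of the brighter one was -0.86 (adjusted p = 0.054).

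Of 31 co-chaperones of HSP70 and HSP90, 25 were measured. None was called on hCG day 10 or 12, 1 rose on day 15 and 2 on day 18, and none was called lower against untreated. Of all probe sets, 0.954%, 0.288%, 1.29% and 3.9% were called on hCG days 10, 12, 15 and 18. BAG2, an exchange factor that restrains the degradation of HSP70 clients, had signals of 414, 426, 523 and 358 untreated and 293, 308, 333 and 259 on hCG day 10. They were 961, 1039, 660 and 1051 on hCG day 18, all above the untreated group, and the log2 change was 1.07 (adjusted p = 0.0016 in limma).

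On day 15 BAG2 had changed by 0.93 (adjusted p = 0.011 in limma), a call lost without hCG day 15 replicate 4 (0.86, adjusted p = 0.053) and without the 3 arrays apart (0.79, adjusted p = 0.091). A dimmer probe set of BAG2 had changes of 0.64 and 0.28 on days 15 and 18 that did not pass. SIL1, the exchange factor of the lumenal HSP70, rose by 0.88 on day 18 (adjusted p = 0.013), from 363 to 418 units untreated to 612 to 1071, and without hCG day 18 replicate 4 the change was 0.71 (adjusted p = 0.052).

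Between the first day and the ninth day of hCG, BAG2 and SIL1 were higher by 1.57 and 0.94 (adjusted p = 2.7e-05 and 0.0070 in limma), and AHSA1 and AHSA2, genes of the HSP90 ATPase activator family, were lower by 0.67 and 0.47 on the log2 scale (adjusted p = 0.025 and 0.039). The AHSA genes were singled out after their values were seen. The step to day 18 was therefore not in 1 direction across the partners of the chaperones.

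TRiC, the ring chaperonin that folds actin and tubulin, and its helper prefoldin had 12 of 14 genes measured. Their summed signal was 20370 to 21180 per array untreated and 23170 to 25970 on hCG day 10, without overlap. On that day 11 of 12 genes lay above 0 with a median of 0.20, but limma called 0 of them, beside 0.954% of all probe sets. By hCG day 18 the sum was 18940 to 21610. PFDN6 was lower on day 18 (-0.42, adjusted p = 0.035), a call lost without any 1 of 7 arrays (the 4 untreated arrays and hCG day 18 replicates 1, 2 and 3, highest adjusted p = 0.11) and without the 3 arrays apart (0.096), and its dimmer probe set had 0.43. Of 33 genes of folding and stress in the endoplasmic reticulum 27 were measured, and 0 passed against untreated in any of the 4 comparisons, with medians between -0.02 and 0.13.

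Immediate early genes, which respond fast to many stimuli, were listed as well, and 8 of 12 were measured. Their summed signal was 8738 to 13650 untreated and 8061 to 11780 on hCG day 10, with 2 of 8 above 0, a median change of -0.33 and none called in limma. Their part in the results on DNAJA4 and DNAJB1 was not tested. On hCG day 18, 2 of the 8 were called lower in limma, beside 2.02% of all probe sets.

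DNAJA4 was also set beside the cholesterol synthesis genes, a list added after its values were seen. Of 15 genes 10 were measured, and 6, 5, 7 and 9 of them were higher on hCG days 10, 12, 15 and 18 in limma, with 0 lower. Beside this, limma called 0.954%, 0.288%, 1.29% and 3.9% of all probe sets in these comparisons. The count of 6 on day 10 was 2 without hCG day 10 replicate 3 or 4 or untreated replicate 1, 2 or 4. The count of 5 on day 12 was 1 without untreated replicate 1 or 4, 2 without hCG day 12 replicate 1 or 3, and 3 without untreated replicate 2. Without the 3 arrays apart together, the counts on the 4 days were 2, 0, 5 and 8. Their summed signal was 6985 to 12100 per array untreated, 14390 to 24310 on hCG day 10 and 20780 to 34370 on hCG day 18. The median log2 changes were 1.08, 1.16, 1.40 and 1.63, where those of DNAJA4 were 2.01, 0.13, 0.32 and 0.17.

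FDFT1, the squalene synthase, had changes of 0.97, 1.13, 1.27 and 1.71 on hCG days 10, 12, 15 and 18, and EBP, a sterol isomerase, 1.25, 1.68, 1.81 and 2.31. The day 18 calls of both held in all 31 alternatives, with highest adjusted p-values of 0.0028 and 0.0015. Their day 10 calls (adjusted p = 0.020 and 0.040) were lost without hCG day 10 replicate 3 or 4 or untreated replicate 1, 2 or 4, that of EBP also without hCG day 18 replicate 1 or 3. Without the 3 arrays apart they were 0.90 (adjusted p = 0.058) and 1.24 (0.10). From hCG day 10 to day 12, where DNAJA4 fell by 1.88, limma called none of the 10 cholesterol genes and their median change was 0.09. The difference between the time courses of DNAJA4 and the cholesterol genes was not tested.

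**Figure D5:**
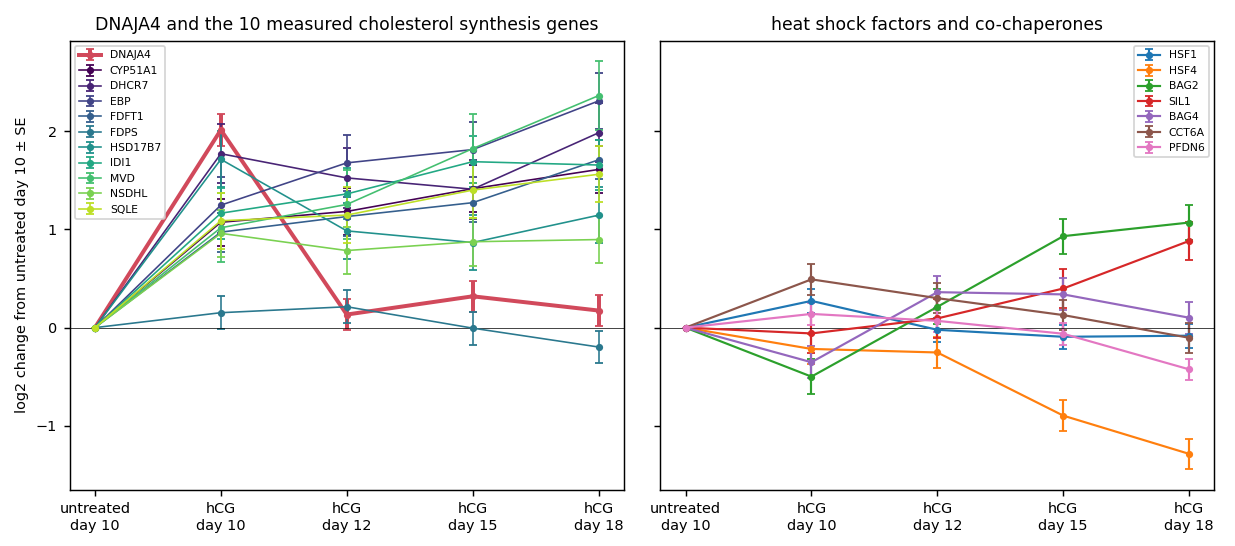
Log2 change from untreated day 10 (± SE, log2 of signal + 16) on hCG days 10, 12, 15 and 18. Left, DNAJA4 (thick red line) and the 10 measured cholesterol synthesis genes, most of which stay near or above 1 after DNAJA4 has come down to 0.13; right, heat shock factors HSF1 and HSF4, exchange factors BAG2, SIL1 and BAG4, and chaperonin and prefoldin subunits CCT6A and PFDN6.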

How the data were processed

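The authors deposited an intensity on a linear scale for each probe set of each array, computed with GCOS per the submitters' processing notes; its version and scaling target are not given in the sources used here. The 2% trimmed mean is 200.01 or 200.02 on every array, so the arrays share a scale. Precision is limited by the number of arrays.

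Of 52865 probe sets, 158 controls were left out. Symbols came from the platform annotation; 24956 probe sets carry 1 symbol, 361 several and 27390 none, and gene IDs of all 48 members matched a current symbol. Log2 of the signal + 16 was fitted with limma (3.58.1, R 4.3.3), 1 mean per group over 20 arrays and no covariate, with Benjamini-Hochberg adjustment over 52707 probe sets within each comparison and a threshold of 0.05. Fold changes are on this scale and understate changes of dim probe sets. Errors of log2 changes are standard errors.

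Members, lists and alternatives were chosen with earlier results of these data known. Named are DNAJA4, DNAJB1, members past a test, the brightest member of each role, the brightest and dimmest of all, and up to 4 genes of each other list by smallest F adjusted p; other genes were named after their values were seen. Alternatives were quantile normalisation, median-centring, pseudocounts of 1 and 64, the upper 50% of probe sets, averaging a gene's probe sets, array weights, a trended variance prior, a fit of 8 arrays, the replicate number as a block, leaving out each array, and leaving out 3 arrays together. Changes were simulated for hCG day 10 against untreated, only in the upper 50% of probe sets by mean and with independent normal noise. Among 52707 probe sets, 63 of 100 changed 2-fold and 96 of 100 changed 4-fold were recovered, with 9 unchanged ones called. Figures used matplotlib (3.10.9) in Python (3.11.15).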

Additional observations from a re-analysis of the deposited data

Results flagged for a closer look

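Single arrays stood apart within their group in 4 of the 130 groups of 4 arrays examined over 26 named genes, by Dixon's criterion on the gap to the nearest array at the 95% level; chance flags about 1 group in 20. DNAJC1 on hCG day 12 had a signal of 616 in replicate 3, below 1193 to 1347 in the others. HSP90AB1 on hCG day 18 had 4849 in replicate 2, above 3904 to 3965. HSPB8 on hCG day 15 had 1869 in replicate 2, above 1271 to 1345. PFDN2, a prefoldin subunit, had 479 in untreated replicate 1, below 533 to 541.

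Values differed between hCG groups in 5 members, tested as the limma contrast between these groups, in which the shared untreated group cancels out. Length of treatment and age of the corpus luteum change together here and cannot be told apart. DNAJA4 was lower than on hCG day 10 by log2 changes of -1.88, -1.69 and -1.84 on days 12, 15 and 18. DNAJB1 differed by -0.52 on day 15 (adjusted p = 0.048) and -0.55 on day 18 (0.019), DNAJC1 by -1.24 and -1.25 on the same days (0.0066 and 0.0032), and on day 18 DNAJB5 by -0.68 (0.019) and HSPH1 by -0.69 (0.042).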

How the results depend on the processing

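The calls on DNAJA4 held under all 31 alternatives, with a log2 change on hCG day 10 of 1.81 to 2.13 and a highest adjusted p of 0.0091 in limma; that of DNAJC1 from hCG day 10 to day 18 held as well. Counts of members past a test moved more. Fitting the 8 arrays of a comparison alone gave 1 member on hCG day 10 against untreated, 1 from hCG day 10 to day 15 and 3 from hCG day 10 to day 18. A pseudocount of 1 gave 2 in the F test and 3 from hCG day 10 to day 18. The mean over probe sets gave 1 on day 15 and 4 on day 18 against untreated (DNAJB5, DNAJC1, DNAJC7 and HSPB6), and 2 from hCG day 10 to day 12, as did median-centring and the upper 50% of probe sets. Median-centring gave 1 on day 18 against untreated. PFDN6 on day 18 reversed under the mean over probe sets, to 0.0013 (adjusted p = 0.997), where its dimmer probe set enters. The causes of the other changes were not tested.

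Leaving out 1 array gave 3 to 4 members in the F test, 2 to 2 on hCG day 10 against untreated, 0 to 3 on day 18 against untreated (0 without hCG day 18 replicate 4), 1 to 2 from hCG day 10 to day 12, 2 to 3 from day 10 to day 15, 2 to 6 from day 10 to day 18 and 0 to 1 from day 12 to day 18. It gave 0 in the other comparisons.

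Replicate numbers are shared between groups, and 14 of 40 same-numbered pairs had deviations correlated above 0.1 (range -0.28 to 0.36). Such a pooled count cannot decide whether the numbers pair the samples, so a fit with the replicate number as a block is given as well. With the replicate block, 4 members passed the F test, 2 passed on hCG day 10 and 2 on day 18 against untreated, 5 from hCG day 10 to day 18 and 2 from day 10 to day 15, where DNAJB1 was lost (adjusted p = 0.077). The number of cholesterol genes called higher with the block was 3, 4, 7 and 8 on hCG days 10, 12, 15 and 18, where it was 6, 5, 7 and 9 without. DNAJB7, DNAJB8 and HSPB9 lay near the lower end of the signal scale, where no change was simulated, so recovery there was not tested.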

Other observations

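Further members not described above had the following values. DNAJC17 was lower on hCG day 18 than on hCG day 10 without overlap (log2 change -0.65, adjusted p = 0.093 in limma). DNAJC4 had log2 changes from untreated of 0.25, 0.35, 0.49 and 0.53 on hCG days 10, 12, 15 and 18 (adjusted p = 0.11 on day 18). DNAJB11, the J protein of the endoplasmic reticulum lumen, was lower on hCG day 18 than on hCG day 12 without overlap (-0.32, adjusted p = 0.29). DNAJC13, which acts on endosomes, changed by no more than 0.10 in any hCG group against untreated, and DNAJB6 by 0.00, 0.02, 0.00 and 0.26.

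The block by replicate number also ended the hCG day 10 calls of the cholesterol genes EBP (adjusted p = 0.052), IDI1 (0.059) and CYP51A1 (0.055).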
